A study of Drosophila melanogaster with 2 samples.

Results

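The 361 regions described here were peaks on the X chromosome of Drosophila melanogaster whose summits lay more than 500 bp from every annotated transcript start. They were chosen by position alone from a conservative list of 3064 peaks that combines the replicates and keeps reproducible ones. Of the 617 peaks of that list on the X, 49 overlapped a stronger peak and were set aside. Of the 568 left, 207 had a summit within 500 bp of a start and 361 lay farther out. The autosomal peaks chosen in the same way, 1244 of 2200, served for comparison. Chromatin immunoprecipitation and sequencing with an antibody against GFP had been done on whole embryos, 0 to 18 h old, carrying wor joined to enhanced GFP. All samples formed 1 group with 2 biological replicates, and no untagged or input library is analysed here. The labels give no sex, so the number of X copies per cell in these embryos is not known, and they do not say which promoter drives the fusion. The depth per library is unknown. Tests below are over peaks, cover counting error only and say nothing of the spread between embryos. Shares carry 95% Wilson intervals.

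Worniu, the product of wor, is a zinc finger protein of the Snail family known from neuroblasts, the stem cells of the fly nervous system, and proteins of that family bind E-box hexamers. Introns and intergenic sequence away from starts hold many of the enhancers that direct expression in space and time. The X also carries a regulatory system of its own. In males, a dosage compensation complex raises transcription from the X, and it enters at GA-rich sites that the zinc finger protein CLAMP binds. Fly X chromosomes are known to be rich in short GA and CA repeats.

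The sequence at the summits was AT-rich. Windows of 101 bp centred on the summit are shown for the 3 strongest members, which lay in introns of CG32772, Tlk and Raf. They hold 30.7%, 25.7% and 34.7% G and C. Next come the summit window of a strong Hr4 member and the window centred 500 bp from that summit, at higher coordinates, where GA runs stand. It was picked, after the values were seen, as the strongest member with a GA run of 8 bases in that flank. The last pair, at ovo and Lim1, are rare members with a GA or a CA run near the summit. Capitals mark the 7-base GA run, the 8-base CA run or the Snail-type hexamer CAGGTG, on either strand. In the ovo window a GA run and a Snail-type hexamer overlap by 1 base and are marked as 1 stretch. All are read from the plus strand of dm6 in the RefSeq sequence.
CG32772, chrX:4910317-4910417: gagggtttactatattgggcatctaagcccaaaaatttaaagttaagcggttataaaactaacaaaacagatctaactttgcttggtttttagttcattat
Tlk, chrX:3742168-3742268: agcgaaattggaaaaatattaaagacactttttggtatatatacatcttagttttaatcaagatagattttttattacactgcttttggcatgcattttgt
Raf, chrX:2297660-2297760: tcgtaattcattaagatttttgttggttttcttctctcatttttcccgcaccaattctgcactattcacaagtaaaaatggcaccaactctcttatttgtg
Hr4 summit, chrX:1947684-1947784: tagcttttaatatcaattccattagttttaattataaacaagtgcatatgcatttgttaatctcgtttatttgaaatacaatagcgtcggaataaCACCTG
Hr4 flank, chrX:1948184-1948284: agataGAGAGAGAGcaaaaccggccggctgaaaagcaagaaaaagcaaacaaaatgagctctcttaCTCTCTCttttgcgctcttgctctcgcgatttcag
ovo, chrX:5046761-5046861: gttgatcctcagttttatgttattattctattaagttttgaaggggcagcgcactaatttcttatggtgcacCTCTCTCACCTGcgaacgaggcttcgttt
Lim1, chrX:8777269-8777369: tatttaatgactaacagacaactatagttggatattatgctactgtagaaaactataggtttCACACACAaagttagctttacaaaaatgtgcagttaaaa

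Most members lay in introns. The summit was in an intron for 296 of 361 members (82.0%, interval 77.7 to 85.6), against 800 of 1244 autosomal peaks (64.3%, interval 61.6 to 66.9). The autosomal arms spread more widely than that interval, with 59.6% on 2L, 71.9% on 2R, 58.0% on 3L and 69.7% on 3R. Intergenic sequence held 53 members (14.7%, interval 11.4 to 18.7), against 392 autosomal peaks (31.5%, interval 29.0 to 34.1). Both differences passed Fisher's exact test (two-sided, adjusted over 6 annotation classes, p = 1.94e-10 for each). Of the remaining 12 members, 5 had summits in 5' UTRs, 4 in 3' UTRs and 3 in non-coding exons. None of the 361 was in a coding exon, a count that allows at most 0.831% by the limit of 3 counts used for zeros here and 1.05% by Wilson's upper bound, and 12 autosomal peaks (0.965%) were. None of these 4 exon classes differed past the threshold, with exact adjusted p from 0.159 to 0.767.

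Members were also denser on the X than their autosomal counterparts, and the excess lay in introns. Relative to sequence over 500 bp from starts, there were 17.6 members per Mb on the X and 13.1 peaks per Mb on autosomes. The ratio was 1.34 (p = 1.51e-06 by a two-sided exact binomial test, 9.06e-06 when adjusted over 6 comparisons). Introns on the X held 29.0 per Mb of intron sequence and autosomal introns 18.8, a ratio of 1.54 (exact binomial test, adjusted p = 1.28e-09). Intergenic sequence on the X held 10.1 per Mb against 12.6, a ratio of 0.80 that did not pass (exact binomial test, adjusted p = 0.138). Introns made up 49.8% of such sequence on the X and 44.8% on autosomes. This split of the density was added after the places of the members had been seen. Expected values rest on bases alone. An alternative counted X bases at 3 copies for every 4 of an autosome, as in an equal mix of the sexes. It assumes that the number of called peaks scales with copies, which was not tested. Under that assumption the ratio was 1.79 over all and 2.06 in introns.

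The 4 long autosomal arms give the spread to read this against. Intron density was 18.8 per Mb on 2L, 19.9 on 2R, 21.0 on 3L and 17.1 on 3R, and the X value of 29.0 lay above each of them. X introns passed against every arm, with ratios of 1.55, 1.46, 1.38 and 1.69 in that order (exact binomial tests, adjusted over 12 comparisons, p from 1.9e-08 to 0.000581). Arm 3R has the same share of intron in its sequence as the X, 49.8%, and the lowest intron density of the 4. Over all sequence away from starts the X passed against 2L, 2R and 3R but not against 3L, which had 15.4 per Mb (ratio 1.14, exact adjusted p = 0.091). Intergenic density varied among the autosomal arms from 8.19 on 2R to 15.9 on 3L. There the X was lower than 2L and 3L (exact adjusted p = 0.0362 and 0.00706) and did not pass against 2R or 3R (exact adjusted p = 0.322 and 0.493).

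**Figure D1:**
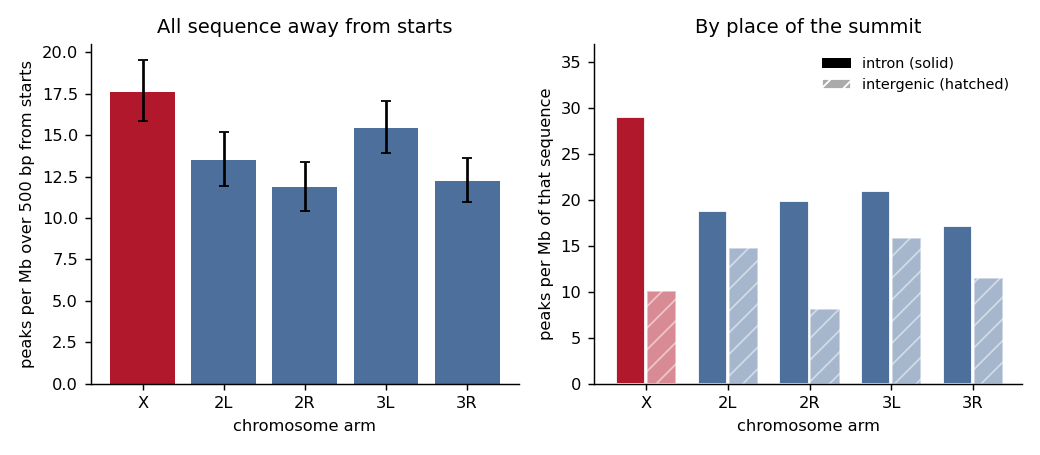
Left, peaks over 500 bp from starts per Mb of such sequence, by chromosome arm, with 95% exact Poisson intervals. Right, the same by place of the summit, intron solid and intergenic hatched, and the X intron bar at 29.0 per Mb stands above the autosomal range of 17.1 to 21.0.

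The X also had a larger part of its peaks away from starts than the pooled autosomes had. Of the X peaks, 63.6% (interval 59.5 to 67.4) were over 500 bp from a start, against 56.5% (interval 54.5 to 58.6) of autosomal peaks (Fisher's exact test, p = 0.00265, adjusted over 6 comparisons p = 0.00796). By arm the share was 54.1% on 2L, 54.01% on 2R, 61.1% on 3L and 55.9% on 3R. The 3L share lay within the interval of the X, and this share was not tested by arm. Peaks within 500 bp of starts numbered 5.30 per 100 annotated start positions on the X and 4.48 to 5.26 on the 4 long autosomal arms.

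The strongest members were mostly intronic, as were the members in general, and were found in both replicates. Of the 20 highest, 19 lay in introns, 1 lay in a non-coding exon, and all 20 overlapped peaks of the thresholded lists of both replicates. The signal that ranks them comes from both replicates, so this overlap goes in part with the choice. Among peaks at or above the median signal of the list, 90.1% of members and 87.7% of autosomal peaks overlapped both. In that part of the list introns held 83.8% of members, against 82.0% of all members. The signal of a peak is a value the authors gave it and is compared only within a list. The highest member, at chrX:4910233-4910521 in an intron of CG32772 (FBgn0052772), had a signal of 776. It ranked 36 of the 2768 peaks of the X and the autosomes after overlaps were removed. Its signal was 373 in the ranked list of replicate 1 and 390 in that of replicate 2. Tlk, which encodes a kinase of chromatin assembly, had 666 at chrX:3742081-3742360, with 353 and 318 in the replicates. Raf, the MAP kinase kinase kinase gene, had 647 at chrX:2297575-2297867, with 350 and 303. These members lay 1265, 2321 and 2244 bp from the nearest start. Replicate 1 gave the higher value for 16 of the 20, but the 2 replicate lists are not scaled to each other.

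Other members of the 20 lay near genes of several kinds. NFAT, a transcription factor gene, had 628 at chrX:13640389-13640649. LPCAT, a lysophospholipid acyltransferase gene, had 628 at chrX:9579147-9579430. CG3726 had 574. norpA, the phospholipase C gene of phototransduction, had 512 in its intron. CHES-1-like, a forkhead gene, had members of 511 and 318. schlank, the ceramide synthase gene, had 459. Hr4, a nuclear receptor gene of the ecdysone response, had members of 401 and 390. A second Raf member had 479. Further members of the 20 were nearest to CG4004, CG32767, Dok, CG42258, prage and pico, with signals from 325 to 497. Of the 20, 8 lay within 1000 bp of a start, 3 lay over 5000 bp away, and 1, the Hr4 member of 390, had CAGGTG within 50 bp of the summit.

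By nearest protein-coding start, the 361 members fell to 232 genes, 10.6% of the 2196 on the X. The corresponding share for autosomes was 7.26% of 11749 genes. A gene with a long stretch to its neighbours collects more peaks under this rule. The median stretch nearest to a gene's starts was 17.2 kb for X genes with a member and 5.24 kb for all X genes. For all autosomal genes it was 4.07 kb, and its part in the difference between X and autosomal shares was not tested. There were 156 genes with 1 member and 29 with at least 3. The 285 members in an intron of a protein-coding gene were spread over 167 host genes. Their median length was 22980 bp, against 2521 bp for all X protein-coding genes.

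Several genes held runs of members. Raf (X 2295466 to 2343870) had 7 within 7.78 kb, all in the first 8615 bp of a gene of 48405 bp. In order from the start their signals were 223, 647, 157, 479, 83.5, 195 and 183, so strong and weak members alternated. Of these, 6 were in both replicates' thresholded lists, and the gene had no peak within 500 bp of a start. Tlk also had 7, at 22.2 to 54.5 kb from its most upstream start, from 74.7 to 666. CHES-1-like had 7 in its introns, from 70.6 to 511, and 6 of them stood within 8.58 kb. It also had 2 peaks near starts, the stronger at 216. Hr4 had 6 members at 1.91 to 42.4 kb, with signals from 132 to 401, and all 6 were in both replicates' lists. kirre, an immunoglobulin superfamily gene of muscle founder cells and the longest of these genes at 394149 bp, had 6 from 69.5 to 272, of which 1 was in both lists.

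**Figure D2:**
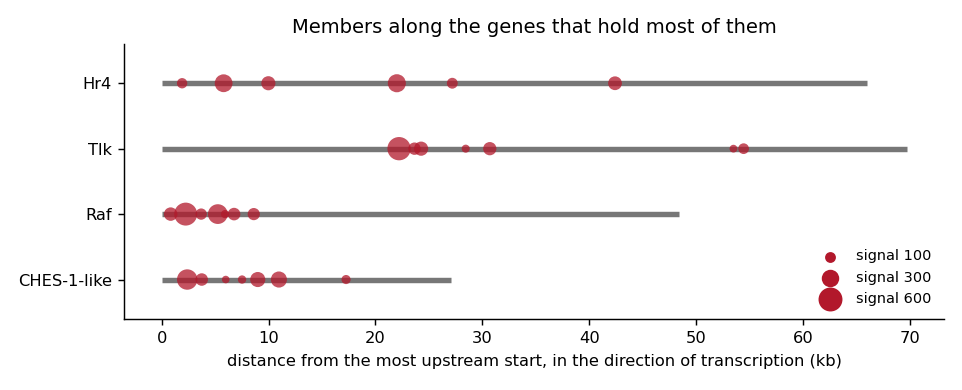
Members along the 4 genes with most of them other than kirre, as distance in kb from the most upstream start in the direction of transcription, with the area of each circle in proportion to signal and the grey bar as the gene. The Raf members sit in the first 8615 bp and the Hr4 members at 1.91 to 42.4 kb.

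A further 6 genes had 4 members each. These were Mnt, which encodes the Myc antagonist, with signals from 82.5 to 159, Ten-a, a teneurin gene of synaptic partner choice, with 81.7 to 171, and Drak, a kinase gene acting on myosin, with 81.6 to 152. CG42258 had 78.9 to 345, unc-119 had 112 to 267 and CG14269 had 82.0 to 168. None of the 8 members given to unc-119 and CG14269 lay in those genes. The members given to unc-119 lay in an intron of CG1677, which spans 124709 bp at X 7281089 to 7405797. The gene unc-119 itself (X 7288367 to 7291298) lies within that span. CG1677 was singled out after its values were seen. Its introns held 11 members with signals from 79.0 to 354, whose nearest starts were those of Dok, unc-119, CBP, brk and Atg5. brk, a repressor of BMP targets, was thus given members of 233 and 79.5 that stand in an intron of CG1677. Which gene a member serves cannot be read from its position.

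Gene lists of the X were read against the 10.6% of all X protein-coding genes with a member. No list was tested, and the lists were chosen with earlier results of these data known. Growth, hormone and chromatin genes had 8 of 14 with a member (57.1%), with a median stretch of 18.2 kb. Besides CHES-1-like and Hr4 these were ph-d, a Polycomb group gene, with 244, Smr, a corepressor gene, with 205, Myc with 167, Mnt, ph-p with 119 and dlg1 with 91.5. CycD and usp had none. Muscle, adhesion and cytoskeleton genes had 7 of 12 (58.3%, median stretch 16.7 kb). Moe, which encodes moesin, had 312, Act5C 294, kirre 272, sn, the fascin gene, 215, and the integrin genes mew and if 119 and 68.4, while rst and up had none. Both shares were above 10.6%, both stretches were above the 5.24 kb of all X genes, and the part of the stretch in the shares was not tested.

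Developmental signalling genes had 7 of 22 (31.8%, median stretch 18.9 kb). After Raf came brk, then bi, a T-box gene, with 198, sog, the BMP antagonist gene, with 175, upd1, a ligand gene of the JAK/STAT pathway, with 148, oc, a head gap gene, with 141, and sgg, the GSK3 kinase gene, with 108. arm and dsh had none. For N, the Notch receptor gene, 1 member of 280 stood in an intron though its nearest start was that of another gene. Neural genes were closer to the background. Of 13 neural progenitor genes 2 had a member (15.4%), baz, an apical polarity gene, with 237 and oc, while the proneural genes ac, sc, l(1)sc and ase had none. Of 22 neuron genes 3 had one (13.6%, median stretch 28.4 kb). dnc, the cAMP phosphodiesterase gene, had 178, Ten-a 171 and fne, an RNA-binding protein gene, 106, and elav and Appl had none, though elav had a peak of 491 within 500 bp of a start. A further pair, mnb and Nrg, hosted members of 298 and 88.1 in introns.

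Of 8 protein-coding genes of sex determination and dosage compensation 2 had a member (25%, median stretch 12.9 kb). Sxl, the master switch of sex determination and dosage compensation, had 2 members in its introns, the stronger with 153 at chrX:7095542-7095905 and 71.6 and 73.3 in the replicates. upd1, also counted as an X-linked signal element, had one 14015 bp away. mof, which encodes the acetyltransferase of the dosage compensation complex, and sisA had none. The RNA genes of the complex, roX1 (X 3857230 to 3862697) and roX2 (X 11579065 to 11580432), could be given no member, since members go to protein-coding starts. The nearest peak of the list, of either distance class, lay 5.94 kb from roX1 with a signal of 242 and 0.04 kb from roX2 with 90.6. Chemosensory receptor genes, a control list, had 0 of 24, a count that allows at most 12.5%. Their median stretch was 3.60 kb, shorter than that of X genes in general.

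Base composition fell sharply at the summits. In bins of 20 bp, mean GC content was 30.5% at the summits of the members and 45.9% about 250 bp away, and it returned to 40.1% at 990 bp. Within 100 bp of the summit the median was 34.8% (quartiles 29.9 and 38.3). In the window centred 500 bp away on the side of the higher coordinate it was 39.8%. The summit window was the lower for 267 members and the higher for 92 (exact sign test, p = 6.71e-21). The autosomal peaks had the same shape, with 33.6% at the summit and 42.3% in the flank. The 1000 strongest X peaks of the ranked list that were outside the conservative list, of the same distance class, had 41.7% at the summit and 44.7% about 250 bp away. Their summit window was the lower for 47.7%, against 74.0% of the members (Fisher's exact test, p = 2.84e-18). Members and autosomal peaks did not differ in this share past the threshold (74.0% and 78.1%, Fisher's exact test, p = 0.117). X peaks within 500 bp of starts had 33.8% at the summit and 44.8% in the flank. GC content exceeded the autosomal median in 56.2% of members (interval 51.1 to 61.3), which missed the threshold once adjusted (Fisher's exact test, p = 0.0419, adjusted over 6 comparisons p = 0.0582). In the list of replicate 2 alone it passed, 58.3% against 47.4%, as it did in that of replicate 1, 56.2% against 47.7% (Fisher's exact tests, adjusted p = 0.00794 and 0.0263). No member's summit lay in an annotated transposon, and soft-masked sequence made up 23.2% of the summit windows and 22.7% of the flanks.

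**Figure D3:**
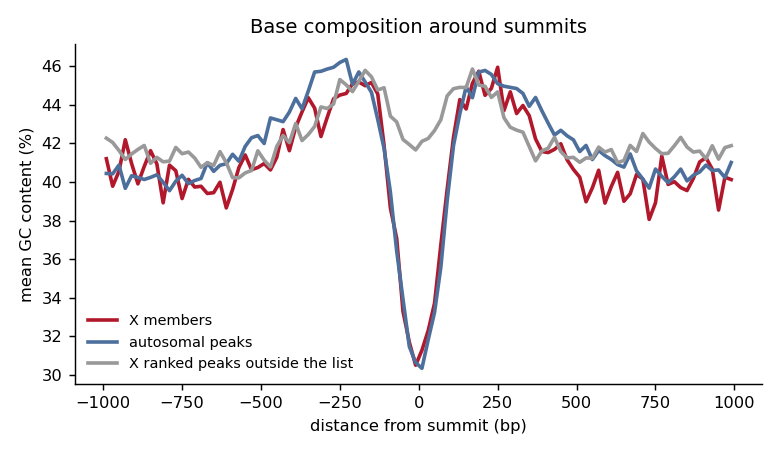
Mean GC content in bins of 20 bp by distance from the summit for the 361 members, the 1244 autosomal peaks and the 1000 strongest X ranked peaks outside the list. The first pair fall to 30.5% and 30.3% at the summit between shoulders near 46%, and the peaks outside the list are at 41.7% there.

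Repeats and motifs were rare at the summits. GAGAGAG was found on either strand within 50 bp of the summit in 2 of 361 members (0.554%, interval 0.152 to 2.00) and in 5 of 1244 autosomal peaks (0.402%, interval 0.172 to 0.937). The 2 members were at CG32645, with a signal of 95.6, and at ovo, a zinc finger gene of the germ line and epidermis, with 76.1. In the window on the side of the higher coordinate, centred 500 bp from the summit, 19 members had it (5.26%, interval 3.40 to 8.07). It stood in the flank alone in 19 and at the summit alone in 2 (exact sign test, adjusted over motifs p = 0.000959). The Hr4 windows printed above show such a pair. On the other side 14 members had it (3.88%, exact sign test, adjusted p = 0.0272). GAGAGAGA, which contains that motif, was at 0 member summits, which allows up to 0.831%, and in 15 flanks at the higher coordinate (4.16%, exact sign test, adjusted p = 0.000787). On the other side it was in 6 (1.66%), which did not pass (exact sign test, adjusted p = 0.135). CACACACA was at 2 summits, at Drak and Lim1, a LIM homeobox gene, and in 20 flanks at the higher coordinate (5.54%, exact sign test, adjusted p = 0.000787) and 14 on the other side (3.88%, exact adjusted p = 0.0272). Autosomal peaks had the same contrast, 0.402% at summits and 3.86% in flanks for CACACACA and 2.81% in flanks for GAGAGAG. In the flank at the higher coordinate the shares for members and autosomal peaks were 5.26% and 2.81% for GAGAGAG and 4.16% and 1.69% for GAGAGAGA. Neither difference passed over the 14 motifs (Fisher's exact test, unadjusted p = 0.0302 and 0.00834, adjusted p = 0.212 and 0.117). On the other side the shares were 3.88% and 2.17% for GAGAGAG and 1.66% and 1.21% for GAGAGAGA. The lower GC content of the summit windows moves with these counts, and its part in them was not tested.

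The Snail-type hexamer CAGGTG was within 50 bp of the summit of 8 members (2.22%, interval 1.13 to 4.31) and of 25 autosomal peaks (2.01%, interval 1.36 to 2.95), shares that did not differ past the threshold (Fisher's exact test, adjusted p = 1). In the flank at the higher coordinate 12 members had it (3.32%), and on the other side 8 (2.22%). It stood at the summit alone in 6 members and in the flank at the higher coordinate alone in 10 (exact sign test, adjusted p = 0.6). Autosomal peaks had it in 3.62% of those flanks and 3.54% of the others. There it stood at the summit alone in 24 and in the flank at the higher coordinate alone in 44 (exact sign test, adjusted p = 0.0411). The hexamer was present in 4.6% of the 1000 ranked X peaks outside the list. The 3 strongest members with it were at Hr4, with 390, CG7065, with 184, and CG32639, with 109. The most frequent of the 14 motifs at member summits was the Twist-type CATATG, in 21 members (5.82%) against 3.62% of autosomal peaks and 4.71% of the members' flanks. That difference did not pass (Fisher's exact test, p = 0.0709, adjusted p = 0.993). None of the 14 motifs differed between X and autosomal summits, and the smallest unadjusted p was that of CATATG. The others were the AT run ATATATAT (2.77%), Ase/Ac-type CAGCTG (1.66%), Zelda-type CAGGTAG (1.11%), the reversed Snail-type control GTGGAC (1.11%), Su(H)-type GTGGGAA (0.831%), DRE TATCGATA (0.554%) and Myc-type CACGTG (0.277%). M1BP-type GGTCACACT and Grh-type AACCGGTT were at 0 member summits. In 304 members (84.2%) none of the 14 was found.

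**Figure D4:**
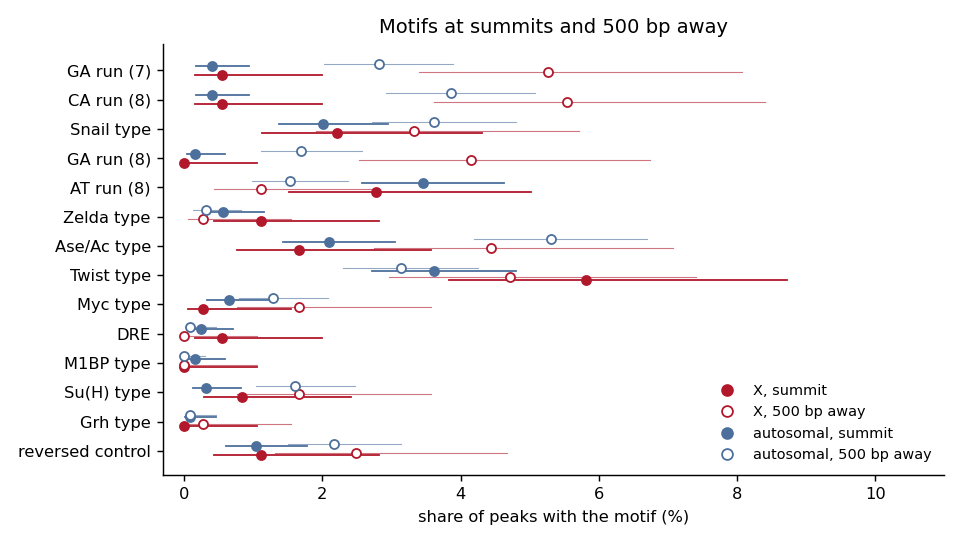
Share of X members and autosomal peaks with each of the 14 motifs, with 95% Wilson intervals. Filled circles are within 50 bp of the summit. Open circles are within 50 bp of the point 500 bp away on the side of the higher coordinate. The GA and CA runs lie at 0.554% or less at X summits and at 4.16% to 5.54% in the flanks.

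Support in both replicates did not differ past the threshold between members and autosomal peaks at 500 bp from starts. Both thresholded lists overlapped 185 of 361 members (51.2%, interval 46.1 to 56.4), replicate 1 alone 69, replicate 2 alone 34 and neither 73. For autosomal peaks the share in both was 46.3% (interval 43.5 to 49.1), a difference that did not pass (Fisher's exact test, p = 0.106). With a distance of 1000 bp from starts it passed, 51.4% against 44.5% (Fisher's exact test, adjusted p = 0.0476). Of the 1244 autosomal peaks, replicate 1 alone overlapped 243, replicate 2 alone 92 and neither 333. The shares in 1 list or neither were not tested. The longer ranked lists of both replicates had a summit within 100 bp for 347 members. The median signal of members was 60.2 in replicate 1 (range 30.7 to 373) and 58.9 in replicate 2 (range 31.0 to 390). For autosomal peaks it was 59.0 and 54.2. The ratio of the medians was thus 1.02 in replicate 1 and 1.09 in replicate 2, and 1.08 in the conservative list.

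**Figure D5:**
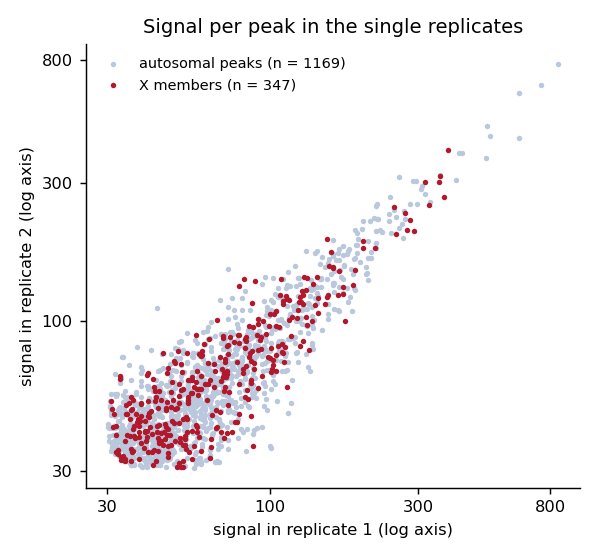
Signal of each peak in the ranked list of replicate 1 against that of replicate 2, both on log axes, for the 347 members and 1169 autosomal peaks matched in both. The members run from 30.7 to 390 and lie among the autosomal peaks.

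In the conservative list the median signal of the members was 118 (quartiles 86.6 and 178) and that of autosomal peaks 109.5 (quartiles 84.1 and 160.0). Above the autosomal median stood 56.0% of members (interval 50.8 to 60.99), which missed the threshold once adjusted (Fisher's exact test, p = 0.0485, adjusted p = 0.0582). The weakest member, 2394 bp upstream of CG11369, had a signal of 6.35, far under the 56.7 of the next, and had no match in either replicate's ranked list. The distance to the nearest start had a median of 2642 bp, with quartiles of 1265 and 5794 bp and a maximum of 42300 bp. Of the members, 19.1% lay within 1000 bp of a start and 29.4% over 5000 bp away, against 18.6% and 30.3% of autosomal peaks. The summit was on the transcribed side of the nearest protein-coding start for 59.8% of members and 58.1% of autosomal peaks. The nearest gene also had a peak within 500 bp of a start for 21.1% and 18.2%. None of these 4 shares, compared after the data were seen, differed past the threshold (Fisher's exact tests, adjusted over 4, p = 0.878 for each). At the limit of the rule, the members closest to a start were at 506 bp, given to CG4004 with a signal of 497, at 508 bp, CG15247 with 151, and at 516 bp, CG17896 with 312. Just within 500 bp lay peaks at prtp (492 bp, 162), ph-p (490 bp, 1280) and CG8128 (487 bp, 223).

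Members had close neighbours more often than autosomal peaks did. A further member lay within 5000 bp for 136 (37.7%, interval 32.8 to 42.8), against 30.6% (interval 28.1 to 33.2) of autosomal peaks (Fisher's exact test, p = 0.0126, adjusted over 6 comparisons p = 0.0253). The share was 27.4% on 2L, 32.0% on 2R, 34.3% on 3L and 28.2% on 3R. Members were also denser, at 17.6 per Mb against 13.1, and 3L, at 15.4 per Mb, was the densest autosomal arm. A denser set has more summits within a fixed distance, and the part of density in this share was not tested. The difference in close neighbours did not pass in the list of replicate 1 alone, 32.8% against 27.0% (Fisher's exact test, adjusted p = 0.0731). Nor did it pass with overlapping peaks kept, 47.0% against 44.1% (Fisher's exact test, adjusted p = 0.329). In the list of replicate 2 alone it passed, 32.0% against 24.1% (Fisher's exact test, adjusted p = 0.0241). For a neighbour within 2000 bp it also passed, 25.5% against 16.3% (Fisher's exact test, adjusted p = 0.000435). The median gap between neighbouring summits was 23.4 kb, and the largest was 915 kb. The most populated stretches of 1 Mb held 32 members each, at 3 to 4 Mb, where Tlk, Mnt and dnc lie, and at 7 to 8 Mb, where CHES-1-like and CG1677 lie. The first 14 Mb held 272 of the 361, and 12 lay beyond 20 Mb. The share of sequence, genes or all X peaks in these stretches was not counted. Without that baseline the counts cannot tell whether the members prefer a part of the X.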

How the data were processed

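The deposited files were peak lists on dm6 from embryos aged 0 to 18 h, with chromatin fragments of 200 to 800 bp per the labels. The signal per peak in the deposited lists is the authors' own value and is not scaled between lists. Per the deposited notes, the lists were thresholded or ranked by the irreproducible discovery rate. The aligner and the peak caller were not given in the sources used here. Depth is unknown, and intervals cover counting error only.

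Starts were those of all Ensembl release 115 transcripts except transposable elements, with RefSeq Release 6 sequence. The 19 peaks on other contigs were left out. Summits were placed in the first class that held them, in the order coding exon, 5' UTR, 3' UTR, non-coding exon, intron, intergenic. Shares were compared by two-sided Fisher's exact tests and densities by exact binomial tests (SciPy 1.17.1), with Benjamini-Hochberg adjustment and a threshold of 0.05. The intron and intergenic densities, the tests by arm, the comparison of GC at summit and flank, the 4 further shares and the alternative on unmasked bases were added after the data were seen. Motif counting was tested on simulated sequence. The members, lists and tests were chosen with earlier results of these data known. Named genes are those of the 20 strongest members (1 is not reported here), the genes with the most members, up to 4 with and 2 without a member per list (more were printed for some lists), the 3 members on each side of 500 bp and the 3 strongest with each of 3 motifs. Printed windows were widened to 101 bp so that each motif is inside.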

Additional observations from a re-analysis of the deposited data

How the results depend on the processing

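Across 95 alternatives of 12 results, 75 kept their direction and their side of the threshold. These include all alternatives run for the density of members, with ratios from 1.32 to 1.79, for their density in introns (1.50 to 2.06) and for the share of peaks away from starts and the share in introns. Leaving out 1 replicate gave ratios of 1.40 to 1.50 for the density and 1.60 to 1.75 in introns. With X bases counted at 3 copies for every 4 of an autosome the intergenic ratio turned to 1.07 (exact binomial test, adjusted p = 0.653). That value rests on the untested assumption that called peaks scale with copies. With a distance of 1000 bp from starts, 3 differences between X and autosomes passed that had not, signal by 6.85 percentage points, support in both replicates by 6.90 and GC content by 7.98. GC content also passed in the stronger part of the list, by 15.98 points, and in both single-replicate lists, by 8.46 to 10.96. The difference in close neighbours no longer passed in the stronger part of the list (5.65 points) or with a distance of 1000 bp (5.58). Nor did it pass with overlapping rows kept (2.85) or in the list of replicate 1. The range over the single-replicate lists was 5.83 to 7.90. For a neighbour within 2000 bp the difference was 9.17 points and passed. Motif differences were small and changed sign without passing. The GA run gave 0 points in the stronger part of the list, 1.44 within 100 bp (3.05% against 1.61%, Fisher's exact test, adjusted p = 0.397) and -0.284 to 0.0342 in the single-replicate lists. The CA run gave -0.0708 with overlapping rows kept, -0.24 within 100 bp and -0.12 to 0.54 in the single-replicate lists. CAGGTG gave -1.23 in the stronger part, -0.70 within 100 bp and -1.83 to -0.97 in the single-replicate lists. The cause of these changes was not tested. No paired analysis was possible because there is 1 group. With unknown depth, a motif seen in under 1% of 361 members cannot be compared closely.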
